A study of Mus musculus with 6 samples.

Results

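The genes examined here are those of fatty acid and cholesterol synthesis that sterol regulatory element-binding proteins (SREBPs) control, together with the regulators of that pathway. They were chosen by name, as 37 of the 18029 genes measured, and comprise 6 regulators, 14 genes of the fatty acid arm and 17 genes of the sterol arm. All 37 had at least 1 probe set on the array, 86 probe sets in all, and a gene was represented by its brightest probe set, taken over the mean of the 6 arrays. Gene expression was measured on Affymetrix arrays in liver RNA of mice with hepatocyte-specific deficiency of RECS1 (RECS1-HKO, n = 3) and of control mice with floxed RECS1 alleles (RECS1-flox, n = 3). All 6 animals were C57BL/6, ate a high-fat diet for 8 weeks from the age of 8 weeks and were 16 weeks old at dissection, so that the diet is shared by both genotypes and no chow-fed group enters the comparison. On the array RECS1 is listed as Tmbim1, which encodes a multipass membrane protein. The sources used here do not give the promoter that drives Cre. That other liver cells are not targeted rests on the stated hepatocyte specificity alone.

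SREBPs are transcription factors that are made as membrane proteins of the endoplasmic reticulum. The escort protein Scap carries them to the Golgi, where they are cut and released to the nucleus, and the Insig proteins hold Scap back when sterols are plentiful. In liver, the SREBP-1c form encoded by Srebf1 mainly drives fatty acid synthesis together with the sugar-responsive factor ChREBP (Mlxipl), whereas SREBP-2, encoded by Srebf2, mainly drives cholesterol synthesis. Transcripts of both arms are known to follow feeding, insulin and cellular sterol content.

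The arrays were checked first. Tmbim1 read 7.19, 7.14 and 7.06 in HKO livers, against 7.62, 7.58 and 7.74 in control livers (log2 values), a log2 fold change of -0.52 ± 0.08 (SE, limma adjusted p = 0.026), and leaving out any 1 of the 6 arrays ended the call (adjusted p between 0.065 and 0.0967). The hepatocyte markers Alb and Ttr lay between 13.22 and 13.64 on every array. The highest value of the data was 13.64, so these 2 genes lie near the top of the range and would show small changes poorly. Xist lay between 1.20 and 1.57, and the Y-linked gene Eif2s3y between 6.74 and 7.14, on all 6 arrays. In bulk liver RNA, fewer cells of a type and less RNA per cell cannot be told apart. Precision is limited by having 3 arrays a genotype.

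No gene of the pathway passed the test between genotypes. Of the 37 genes, 0 had an adjusted p under 0.05 (limma, Benjamini-Hochberg over all genes), against 1.01% of all 18029 genes (0.56% higher and 0.449% lower in HKO livers). At an unadjusted p under 0.05 there were 4 higher and 1 lower, beside 13% of all genes in either direction. The arms differed in direction. All 14 genes of the fatty acid arm had positive log2 fold changes, between 0.11 and 0.71 with a median of 0.28, and 15 of the 17 genes of the sterol arm had negative ones, between -0.74 and 0.17 with a median of -0.21. The median over all genes was -0.0041. Of the sterol genes, 16 lay below every fatty acid gene. The exception was Sc5d. The size for each arm depended on single arrays. Without HKO 3, 7 of 14 fatty acid genes were positive (median 0.036) and 16 of 17 sterol genes negative (median -0.55), and without HKO 1 the sterol median was -0.016.

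Among the regulators, 1 gene had all HKO arrays above all control arrays and 2 had them below, where 8.58% of all genes lay above and 10.1% below in the same manner. Srebf1, which encodes SREBP-1, read 9.52, 9.37 and 9.26 in HKO livers, against 9.22, 9.06 and 8.88 in control livers. Every HKO array lay above every control array, by a log2 fold change of 0.34 ± 0.11 (SE, limma adjusted p = 0.246). Srebf2, which encodes SREBP-2, read 5.89, 6.05 and 6.09 in HKO livers, against 6.14, 6.25 and 6.18 in control livers. Here the HKO arrays all lay below the controls, at -0.18 ± 0.08 (limma adjusted p = 0.407). The second probe set of Srebf2 had the same difference, -0.18, but its arrays overlapped. It read 5.19, 5.36 and 5.67 in HKO livers, against 5.40, 5.81 and 5.56 in control livers. Mlxipl, which encodes ChREBP, read 8.68, 8.51 and 8.74 in HKO livers, against 9.03, 8.99 and 8.97 in control livers. The HKO arrays lay below the tightly grouped controls, at -0.35 ± 0.08, the lowest p of the pathway (limma adjusted p = 0.118). None of these 3 passed in any of the 6 fits without 1 array.

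The genes that hold or move the SREBPs were less ordered. Scap, the escort protein, read 8.75, 8.88 and 9.13 in HKO livers, against 9.18, 9.10 and 9.10 in control livers, so that HKO 3 stood within the control range and the other HKO arrays below it (-0.21 ± 0.10, limma adjusted p = 0.456). Insig1, itself a well-known SREBP target, read 9.57, 9.53 and 10.06 in HKO livers, against 9.39, 9.63 and 9.69 in control livers. HKO 3 was the highest of the 6 arrays, and without it the difference was -0.018 in place of 0.15. Insig2, its relative, read 10.24, 10.36 and 10.49 in HKO livers, against 9.92, 10.27 and 10.05 in control livers, with 1 HKO array inside the control range. Its log2 fold change was 0.28 ± 0.11 (limma adjusted p = 0.331), and its other 2 probe sets stood at 0.49 and 0.14.

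**Figure D1:**
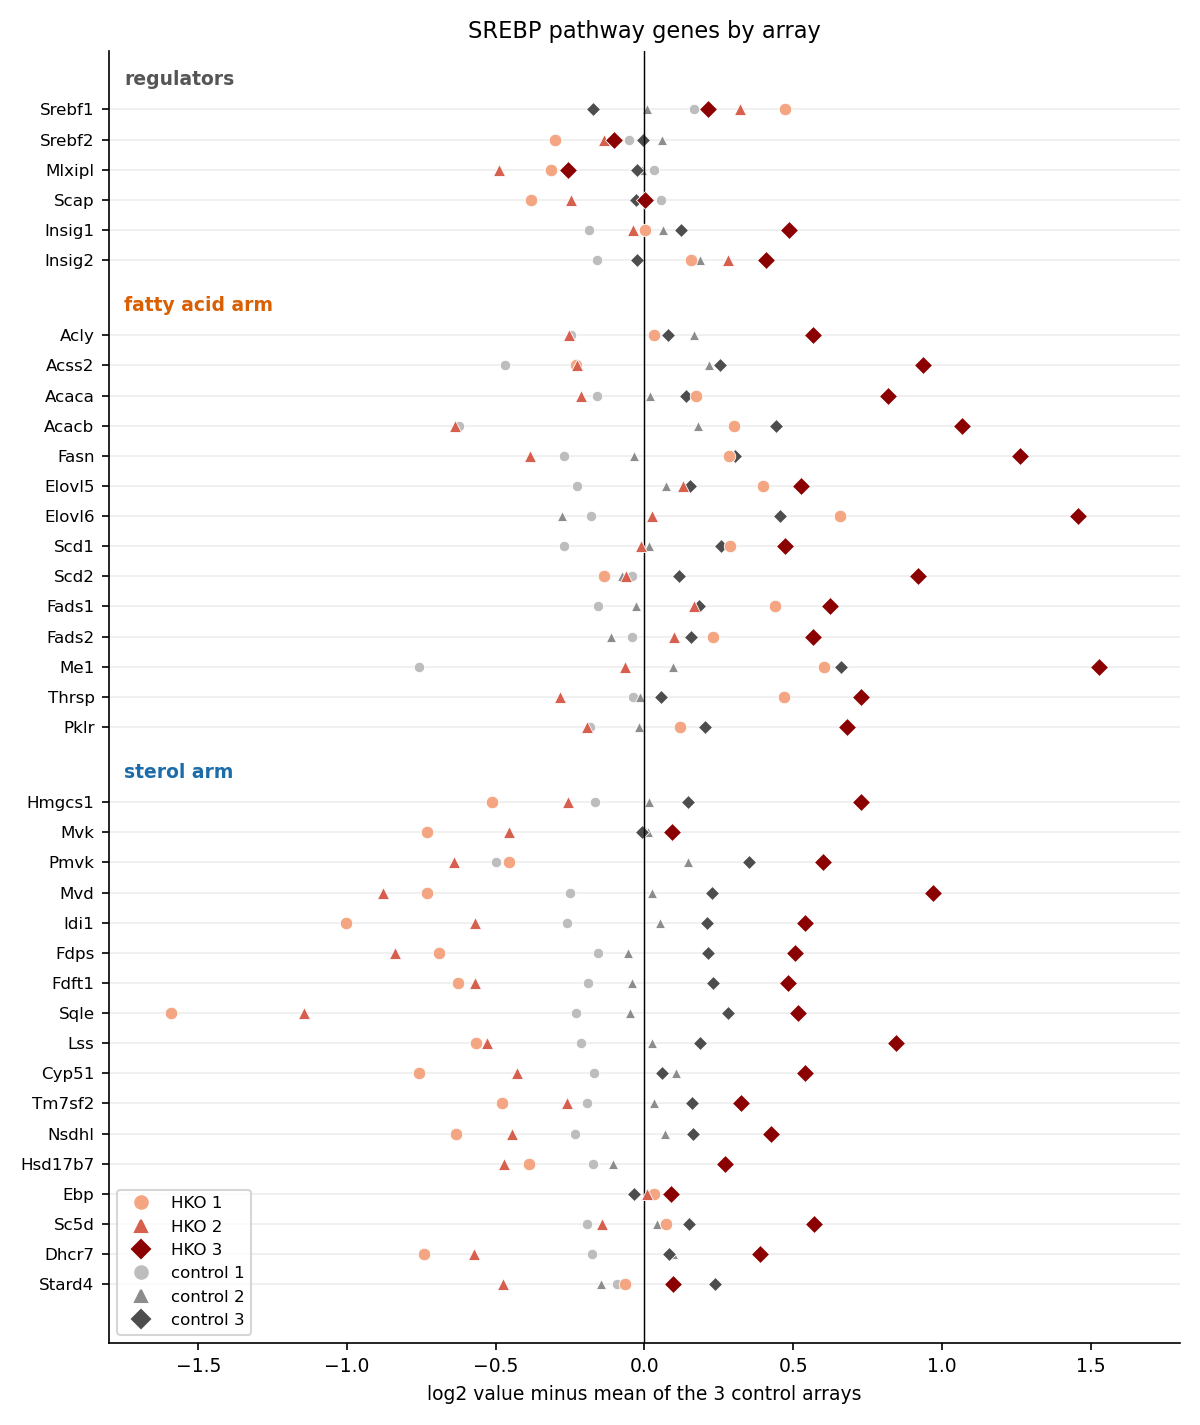
Log2 value of each of the 37 genes on each array, minus the mean of the 3 control arrays (x axis), with HKO arrays in orange to dark red and control arrays in grey. HKO 3 is the highest HKO array in 14 of 14 fatty acid genes and 17 of 17 sterol genes, while HKO 1 and HKO 2 both lie below all controls in 13 of 17 sterol genes.

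The fatty acid arm was higher in HKO livers by its averages, and by the brightest probe sets its arrays overlapped in every gene. Some probe sets not used here, of Elovl5, Fads2 and Pklr, had all HKO arrays above all controls. Those of the other fatty acid genes overlapped. Fasn, the fatty acid synthase, read 9.73, 9.06 and 10.71 in HKO livers, against 9.18, 9.41 and 9.75 in control livers. HKO 3 stood highest, HKO 2 lowest of all 6 arrays, and HKO 1 within the control range, which gave a log2 fold change of 0.39 ± 0.36 (SE, limma adjusted p = 0.708) with a 95% interval from -0.44 to 1.22. In the carboxylases of acetyl-CoA, too, HKO 3 was the highest and HKO 2 the lowest of the 6 arrays. Acaca, the acetyl-CoA carboxylase of fatty acid synthesis, read 7.10, 6.72 and 7.75 in HKO livers, against 6.77, 6.95 and 7.07 in control livers. Its relative Acacb, whose product restrains mitochondrial fatty acid uptake, spread further, at 6.93, 5.99 and 7.70 in HKO livers, against 6.01, 6.81 and 7.08 in control livers. The citrate lyase Acly (0.11), the acetyl-CoA synthetase Acss2 (0.16), Acaca (0.26), Acacb (0.24) and Fasn all had negative values when HKO 3 was left out, between -0.23 and -0.020.

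Elongases and desaturases kept positive values without HKO 3, with Scd2 as the exception. Elovl6, which extends palmitate, had the largest difference of the arm and read 8.87, 8.24 and 9.68 in HKO livers, against 8.04, 7.94 and 8.67 in control livers. The HKO mean was 1.64 times the control mean (0.71 ± 0.34, limma adjusted p = 0.43), and without HKO 3 the log2 fold change was 0.34. Fads1, the delta-5 desaturase of polyunsaturated fatty acids, read 11.00, 10.73 and 11.18 in HKO livers, against 10.40, 10.53 and 10.74 in control livers. Only HKO 2 reached into the control range, and the difference was 0.41 ± 0.13 (limma adjusted p = 0.248) with all arrays and 0.30 without HKO 3. Elovl5, the elongase of polyunsaturated fatty acids, read 12.64, 12.37 and 12.77 in HKO livers, against 12.02, 12.32 and 12.40 in control livers (0.35 ± 0.13, limma adjusted p = 0.316). Fads2, the delta-6 desaturase, stood at 0.30 and Scd1, the main stearoyl-CoA desaturase of liver, at 0.25, and 0.16 and 0.14 without HKO 3. The Scd1 probe set used read between 12.27 and 13.02, high in the range of the data, and its second bright probe set stood at 0.75. The other probe sets of Fads2 stood at 0.61 and 0.43. Scd2, the only gene of the pathway that was dimmer than the median gene, had 5.39 on HKO 3 and between 4.33 and 4.58 on the other 5 arrays.

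The remaining genes of the arm make reducing power or mark the lipogenic state. Me1, the NADPH-producing malic enzyme, read 9.63, 8.96 and 10.55 in HKO livers, against 8.27, 9.12 and 9.69 in control livers. By the probe set used, it varied widely within both genotypes (SD 0.80 in HKO and 0.72 in control livers). Its difference there of 0.69 ± 0.44 (limma adjusted p = 0.566) was smaller than that spread, while its second probe set stood at 1.01. Thrsp, a nuclear protein that follows lipogenesis, read 11.45, 10.69 and 11.70 in HKO livers, against 10.94, 10.96 and 11.03 in control livers. HKO 1 and HKO 3 stood above the close-lying controls and HKO 2 below them, so that without HKO 2 the log2 fold change was 0.60 (limma adjusted p = 0.0605, with 0.893% of all genes called in that fit). Pklr, the liver pyruvate kinase and a ChREBP target, stood at 0.20 ± 0.21, and at -0.037 without HKO 3.

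In the sterol arm, 2 HKO livers mostly read below the controls and the third above them. Sqle, the squalene epoxidase and a rate-limiting step after squalene, read 7.31, 7.75 and 9.41 in HKO livers, against 8.67, 8.85 and 9.18 in control livers. HKO 1 and HKO 2 lay 1.59 and 1.14 log2 units below the control mean and HKO 3 lay 0.52 above it. The log2 fold change over all arrays was -0.74 ± 0.47 (SE, limma adjusted p = 0.562), the largest of the arm. Without HKO 3 it was -1.37 ± 0.18, and Sqle was then the 1 pathway gene past the threshold (limma adjusted p = 0.0296, with 0.51% of all genes called in that fit).

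Of the early mevalonate steps, Hmgcs1, Mvk and Mvd also had HKO 1 and HKO 2 below all controls and HKO 3 above them. Hmgcs1, the cytosolic HMG-CoA synthase, read 10.65, 10.91 and 11.90 in HKO livers, against 11.00, 11.18 and 11.31 in control livers, which gave a log2 fold change of -0.013 ± 0.28 from an HKO range wider than that of the controls. Mvk, the mevalonate kinase, read 5.43, 5.71 and 6.26 in HKO livers, against 6.17, 6.18 and 6.16 in control livers (-0.37 ± 0.18, limma adjusted p = 0.456). Its controls nearly coincided (SD 0.010), and its second probe set stood at -0.05. The decarboxylase Mvd read 5.78, 5.63 and 7.48 in HKO livers, against 6.26, 6.54 and 6.74 in control livers. HKO 3 was 0.97 above the control mean, the highest of the sterol arm on that array. The phosphomevalonate kinase Pmvk stood at -0.17 ± 0.33.

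The isoprenoid and squalene steps followed. Idi1, the isopentenyl diphosphate isomerase, read 8.92, 9.35 and 10.46 in HKO livers, against 9.66, 9.97 and 10.13 in control livers. Fdps, the farnesyl diphosphate synthase, read 9.55, 9.40 and 10.74 in HKO livers, against 10.08, 10.18 and 10.45 in control livers. Both had HKO 1 and HKO 2 below all controls and HKO 3 above all controls, and both stood at -0.34 over all arrays, against -0.79 for Idi1 and -0.76 for Fdps without HKO 3. Fdft1, the squalene synthase, stood at -0.24 ± 0.28 and its second bright probe set at -0.21.

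Of the enzymes that turn squalene epoxide into cholesterol, Lss, the lanosterol synthase, read 7.43, 7.47 and 8.84 in HKO livers, against 7.78, 8.02 and 8.18 in control livers (-0.08 ± 0.34). Cyp51, the lanosterol demethylase, stood at -0.22, Tm7sf2 and Nsdhl, a sterol reductase and a sterol dehydrogenase of the following steps, at -0.14 and -0.22, and Hsd17b7, the ketosteroid reductase, at -0.20. Dhcr7, the last reductase, read 8.20, 8.37 and 9.33 in HKO livers, against 8.76, 9.04 and 9.02 in control livers (-0.31 ± 0.26, limma adjusted p = 0.683). None of these passed. HKO 3 was the highest HKO array in 17 of 17 sterol genes, but Pmvk, Hsd17b7, Ebp, Sc5d and Stard4 did not have both HKO 1 and HKO 2 below all controls and HKO 3 above them. Ebp, the sterol isomerase, spanned 10.84 to 10.96 over all 6 arrays. Sc5d, the lathosterol desaturase, read 10.85, 10.64 and 11.35 in HKO livers, against 10.59, 10.82 and 10.93 in control livers (0.17 ± 0.18). Stard4, a sterol carrier, had its highest value, 8.16, on a control array.

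**Figure D2:**
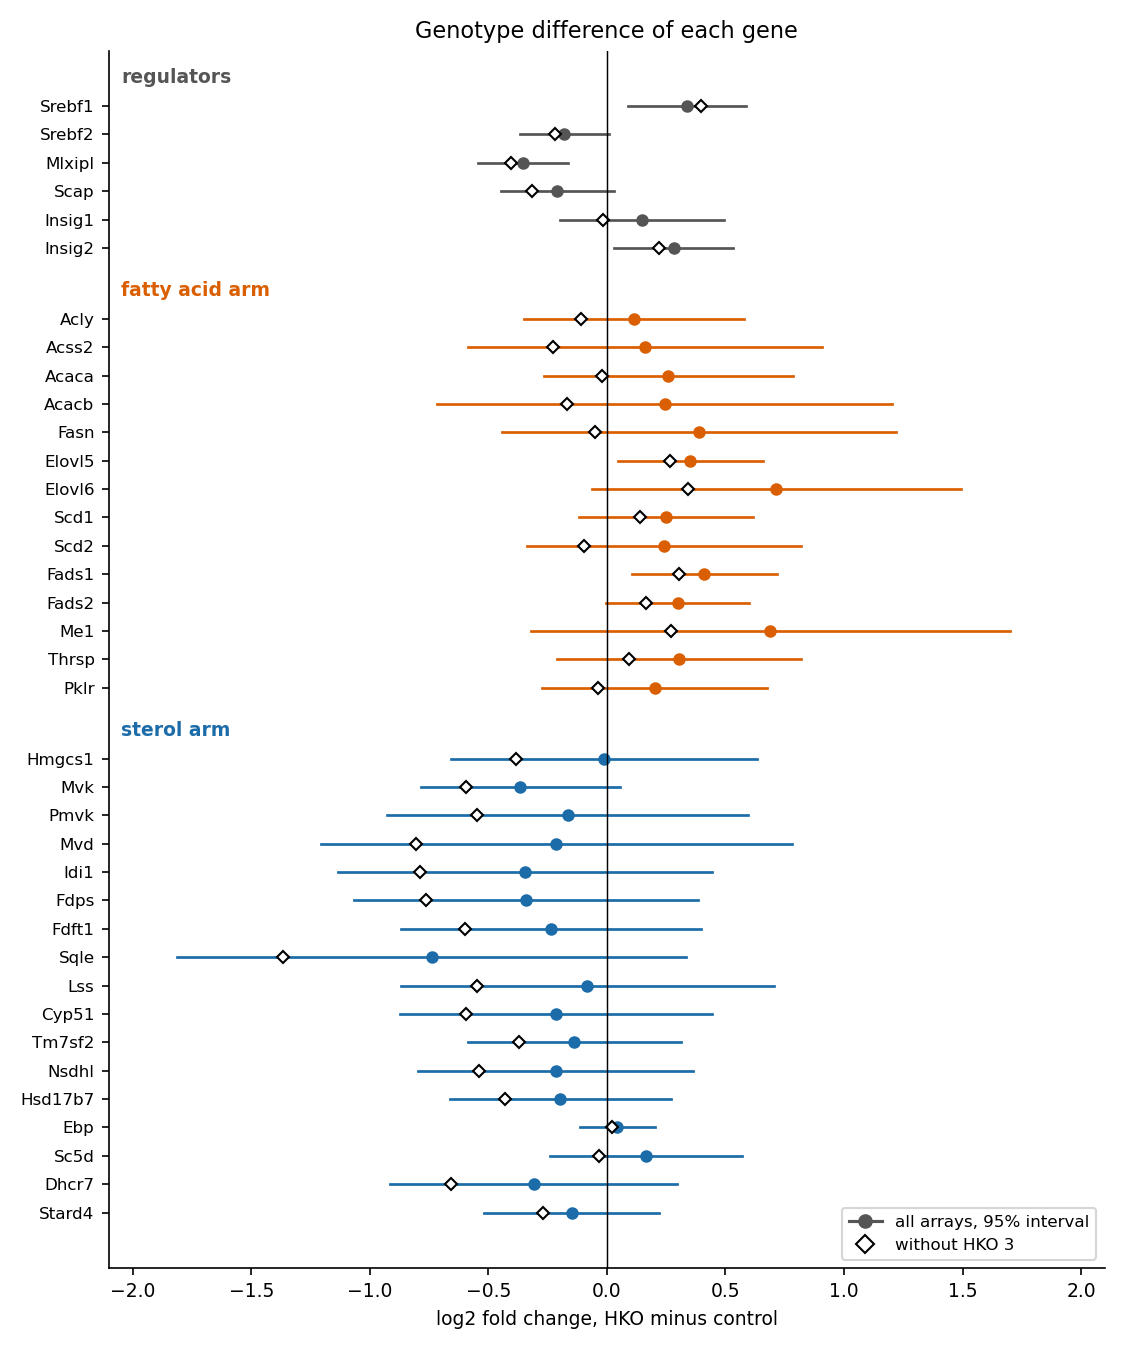
Log2 fold change of each gene, HKO minus control (x axis), with its 95% interval from limma (filled circles, 3 arrays per genotype) and its value without HKO 3 (open diamonds). All fatty acid genes lie right of 0 with all arrays, and 16 of the 17 sterol genes lie left of 0 without HKO 3.

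The promoters of these genes are shown because most sterol genes were high or low on the same arrays. RefSeq promoter windows (GRCm38.p6, 250 bases before to 50 after a start site) were in the table used for 30 of the 37 genes. Each is printed on the gene's strand, in lower case, with capitals for the sterol regulatory element TCACNCCAC and the CCAAT box, which NF-Y, a known partner of SREBPs, binds. Both strands were searched, so the box also appears as ATTGG. The windows of 3 sterol genes and of Fasn follow.
Hmgcs1, chr13:119690101-119690400, plus strand: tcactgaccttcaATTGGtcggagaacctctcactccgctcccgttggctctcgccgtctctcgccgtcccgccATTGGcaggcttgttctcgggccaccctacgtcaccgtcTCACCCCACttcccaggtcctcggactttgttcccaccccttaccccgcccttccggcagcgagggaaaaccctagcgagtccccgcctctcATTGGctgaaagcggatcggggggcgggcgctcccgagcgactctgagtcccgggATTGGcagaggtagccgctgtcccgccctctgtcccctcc
Mvk, chr5:114444019-114444318, plus strand: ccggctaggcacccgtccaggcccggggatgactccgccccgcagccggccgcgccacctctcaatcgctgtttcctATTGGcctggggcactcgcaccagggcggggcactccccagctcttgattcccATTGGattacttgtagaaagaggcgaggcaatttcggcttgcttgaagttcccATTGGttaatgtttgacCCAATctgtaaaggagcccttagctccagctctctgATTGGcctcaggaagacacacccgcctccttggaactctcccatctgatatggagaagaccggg
Idi1, chr13:8885356-8885655, plus strand: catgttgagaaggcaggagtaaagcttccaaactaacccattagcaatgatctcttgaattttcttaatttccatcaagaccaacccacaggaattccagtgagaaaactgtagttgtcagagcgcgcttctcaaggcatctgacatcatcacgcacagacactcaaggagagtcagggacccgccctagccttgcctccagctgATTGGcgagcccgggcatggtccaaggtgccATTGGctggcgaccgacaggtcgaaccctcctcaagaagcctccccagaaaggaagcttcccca
Fasn, chr11:120824498-120824797, minus strand: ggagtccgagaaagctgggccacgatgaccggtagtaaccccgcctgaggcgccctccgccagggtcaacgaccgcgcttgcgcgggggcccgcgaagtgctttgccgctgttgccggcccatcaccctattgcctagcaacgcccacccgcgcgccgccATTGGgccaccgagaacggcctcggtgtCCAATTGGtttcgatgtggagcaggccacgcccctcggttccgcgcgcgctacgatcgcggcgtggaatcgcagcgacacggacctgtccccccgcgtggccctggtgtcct

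In the Hmgcs1 window, TCACCCCAC began 137 bases before the start site, and the window held 4 CCAAT boxes, 2 on either side. Mvk had 5 boxes, Idi1 had 2, and Fasn had 3, of which 2 overlap as CCAATTGG. CCAAT was found in at least 1 window of all 13 sterol genes with a promoter in the table, of 8 of 11 fatty acid genes and of 5 of 6 regulators, against 41.97% of the 14324 array genes with a window. The GC box GGGCGG was found for 12 of 13 sterol genes, 4 of 11 fatty acid genes and 6 of 6 regulators, against 57.5% of array genes. TCACNCCAC was found for Hmgcs1 and for Mlxipl, against 1.47% of array genes, and the E-box CACGTG for 3 of 13 sterol genes, 1 of 11 fatty acid genes and 3 of 6 regulators, against 10.3%. GC boxes and E-boxes are not marked above. Some genes have several windows, and for Mlxipl only 1 of them held TCACNCCAC. A match describes letters in a window, not binding. A missing match does not show that a gene lacks a site for SREBPs, since 1 strict form was searched in short windows.

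The arms were then averaged within each array, each gene taken as its difference from the control mean. The fatty acid arm stood at 0.26, -0.14 and 0.87 in HKO livers, against -0.26, 0.014 and 0.25 in control livers. The sterol arm stood at -0.58, -0.51 and 0.47 in HKO livers, against -0.19, 0.014 and 0.17 in control livers. For each arm alone the genotypes overlapped. The fatty acid arm minus the sterol arm stood at 0.84, 0.37 and 0.40 in HKO livers, against -0.075, 0.00030 and 0.075 in control livers, so that the lowest HKO array lay above the highest control array. The mean was 0.54 ± 0.26 in HKO livers and 0 ± 0.075 in control livers (SD, n = 3 arrays each). No test was made of this average, since the genes were chosen with earlier results of these data known. Leaving out 1 array at a time, the mean difference lay between 0.39 (without HKO 1) and 0.62 (without HKO 2).

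**Figure D3:**
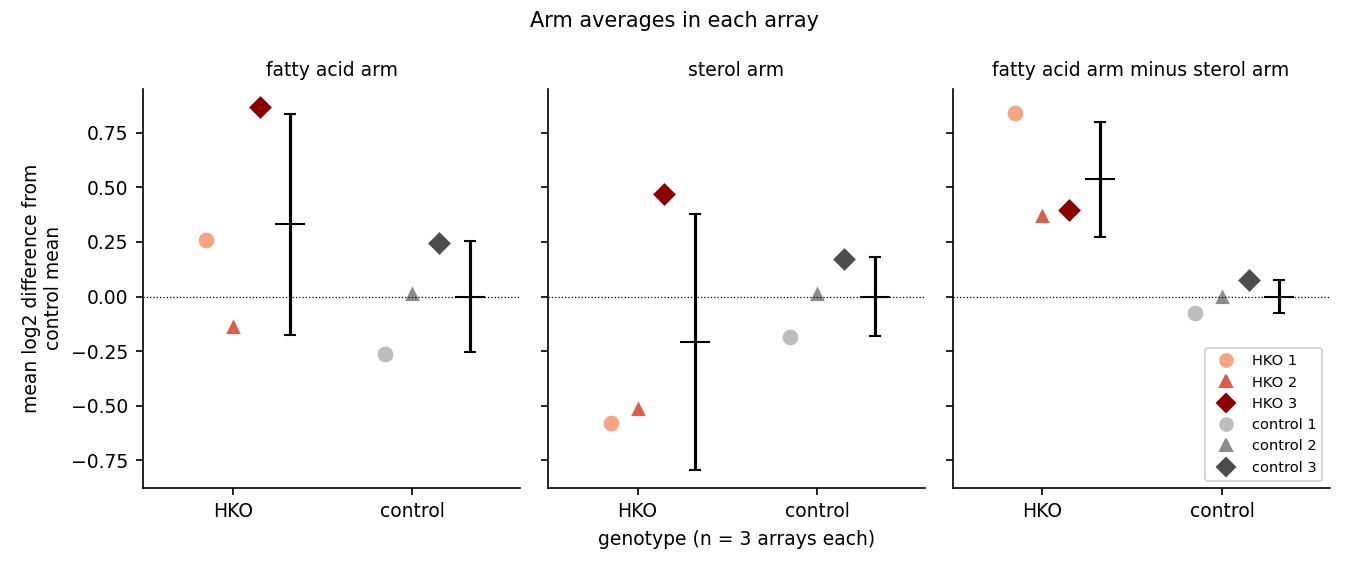
Mean over the 14 fatty acid genes, over the 17 sterol genes, and the first minus the second (panels), as log2 difference from the control mean (y axis), by genotype. Points are arrays and bars are mean ± SD (n = 3). In the difference of the arms, HKO arrays lie between 0.37 and 0.84 and control arrays between -0.075 and 0.075.

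The probe sets not used above gave the same order of the arms. For 10 fatty acid and 10 sterol genes a second probe set was brighter than the median gene. By these, the fatty acid arm minus the sterol arm stood at 0.81, 0.28 and 0.39 in HKO livers, against -0.072, 0.049 and 0.022 in control livers. The split between arms differed, with the fatty acid arm at a mean of 0.47 and the sterol arm at -0.019 in HKO livers. Of all 14 other fatty acid probe sets above the median gene, 14 had positive differences, while 5 of 16 such sterol probe sets had positive and 11 negative ones. A second Lss probe set, for example, stood at 0.36, and the second Mvd probe set at 0.06. Probe sets of a gene share the RNA of an array and are not replicates.

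The 3 HKO livers spread more than the 3 control livers in both arms. The SD over HKO arrays exceeded that over control arrays in 17 of 17 sterol genes and 13 of 14 fatty acid genes, against 51.1% of all genes. Its median was 0.63 in HKO and 0.20 in control livers for the sterol arm, 0.52 in HKO and 0.21 in control livers for the fatty acid arm, and 0.10 in both genotypes over all genes. The genes of an arm moved together on the same arrays, so the counts are not independent observations. They rest on 3 animals a genotype, with HKO 3 the highest HKO array in every gene of both arms. Each array was therefore set against the mean of the other 2 arrays of its genotype. On HKO 3, 16 of 17 sterol genes and 13 of 14 fatty acid genes lay in the upper 5% of all genes, with medians of 1.08 and 0.78. On HKO 2, 14 of 14 fatty acid genes and 14 of 17 sterol genes lay in the lower 5%, with medians of -0.59 and -0.41. On HKO 1, 13 of 17 sterol genes lay in the lower 5% (median -0.58) and 2 of 14 fatty acid genes (median -0.11). The values of HKO 1 and HKO 2 are set against a mean that includes HKO 3.

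Control livers held a smaller version of this joint movement. On control 1, 9 of 17 sterol genes and 8 of 14 fatty acid genes lay in the lower 5%, with medians of -0.28 and -0.31. On control 3, 9 of 17 sterol genes and 7 of 14 fatty acid genes lay in the upper 5%, with medians of 0.28 and 0.29. On control 2 both medians were near 0 (0.036 and -0.0012). Set against the control range itself, HKO 1 was below all controls in 13 of 17 sterol genes and above all controls in 7 of 14 fatty acid genes. HKO 2 was below all controls in 15 of 17 sterol genes and 6 of 14 fatty acid genes, and HKO 3 was above all controls in 15 of 17 sterol genes and 14 of 14 fatty acid genes. For all genes, these arrays were above in 25.4% to 28.8% and below in 28.9% to 29.5%. The combination of HKO 1 and HKO 2 below all controls with HKO 3 above all controls was found in 12 of 17 sterol genes, 0 of 14 fatty acid genes and 1.46% of all genes. This count rests on the brightest probe sets. By their second probe sets above the median gene, Mvk, Mvd, Fdft1 and Cyp51 kept the combination, and Hmgcs1, Idi1 and Lss did not.

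**Figure D4:**
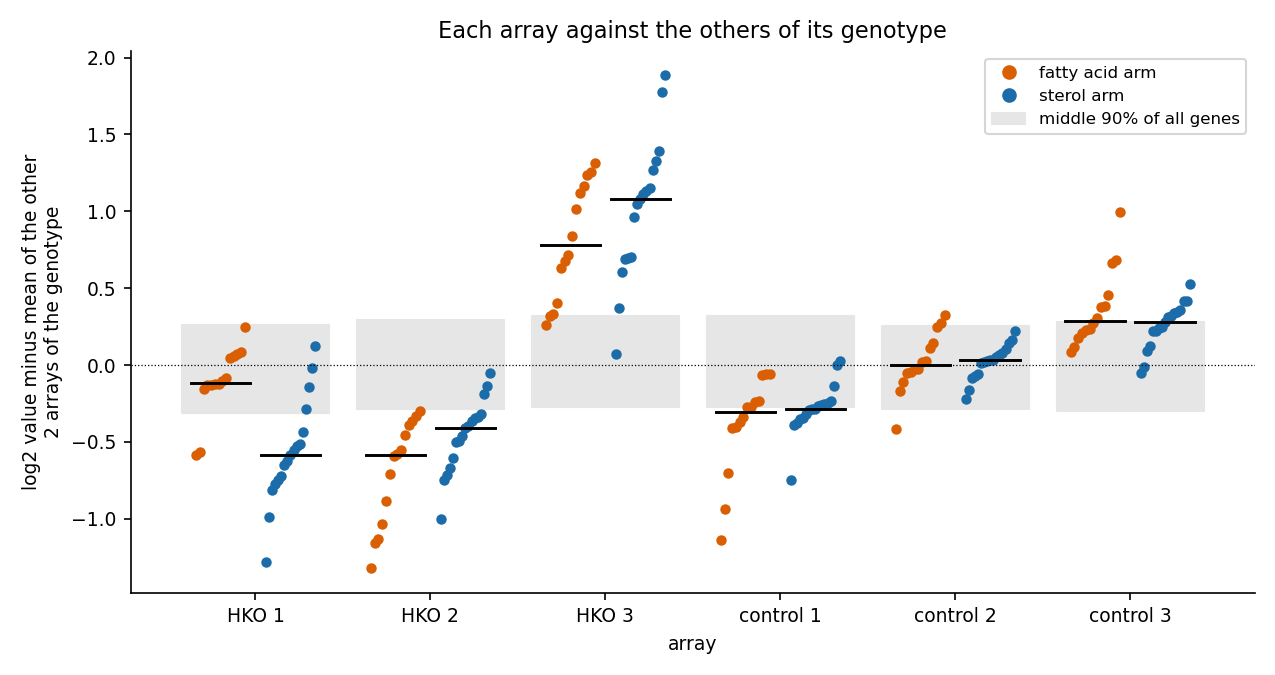
Each gene of the fatty acid arm (orange) and the sterol arm (blue) on each array, as log2 value minus the mean of the other 2 arrays of the same genotype (y axis), with black bars for medians. The grey band leaves out the upper and lower 5% of all genes, and the sterol medians are -0.58, -0.41 and 1.08 on HKO 1 to HKO 3 and -0.28, 0.036 and 0.28 on control 1 to control 3.

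Markers of liver cell types were read on the same arrays. None of the 10 measured hepatocyte markers passed (limma), with mean levels between 11.77 and 12.04 in HKO livers and between 11.81 and 11.96 in control livers. In all HKO arrays, 3 of them lay above all controls and 1, Hnf4a, below (-0.28 ± 0.12, limma adjusted p = 0.37). Of all genes, 8.58% lay above and 10.1% below in this manner. On HKO 3, 4 of 10 hepatocyte markers lay in the lower 5% of all genes, with Tat, a tyrosine transaminase, 0.93 below the other HKO arrays, and 9 of 9 stellate cell markers lay above the other HKO arrays, by 0.17 to 1.24, with 4 in the upper 5%. The stellate list had mean levels between 6.23 and 6.71 in HKO livers and between 6.28 and 6.42 in control livers. On control 1, 13 of 13 macrophage, 5 of 8 neutrophil and 5 of 9 lymphocyte markers lay in the upper 5%. The macrophage list had mean levels between 7.13 and 7.47 in HKO livers and between 6.92 and 7.58 in control livers. All 5 measured cholangiocyte markers were dimmer than the median gene and lower in HKO livers, 2 of them in all HKO arrays, and 0 passed (limma). Their mean levels lay between 2.89 and 2.99 in HKO livers and between 3.17 and 3.26 in control livers. Of the 5 measured adipocyte markers, 0 passed (limma), and the list had mean levels between 5.36 and 5.73 in HKO livers and between 5.10 and 5.24 in control livers. Its defining markers Adipoq and Lep were dimmer than the median gene on all arrays. Cidec, a lipid droplet protein also made by fatty hepatocytes, read 5.95, 4.71 and 6.58 in HKO livers, against 3.98, 3.88 and 4.23 in control livers. All HKO arrays lay above all controls (1.71 ± 0.40, limma adjusted p = 0.115), as they did for Car3 (0.14 ± 0.07, limma adjusted p = 0.492), a carbonic anhydrase. The part of these differences in the arm values was not tested.

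Other genes of the pathway were read from 4 lists, in which 0 genes passed in either direction over all genes (limma). Of 9 measured further SREBP-2 targets, 4 had positive and 5 negative values, with a median of -0.026. Fabp5, a fatty acid-binding protein, read 6.91, 6.79 and 9.09 in HKO livers, against 8.65, 8.29 and 10.10 in control livers. HKO 3 stood above the other HKO arrays and control 3 above the other controls, and the log2 fold change was -1.42 ± 0.66 (limma adjusted p = 0.416). Ggps1, which makes geranylgeranyl diphosphate, stood at 0.20 and the sterol transporter Npc1l1, dimmer than the median gene, at 0.12. Msmo1, the sterol methyl oxidase beside Cyp51 in the pathway, stood at -0.23 ± 0.26, with HKO 1 and HKO 2 below and HKO 3 above all controls. It was the 1 gene of these 9 placed so, and it and Aacs were named after their values were seen. Aacs, the acetoacetyl-CoA synthetase that feeds ketone bodies into lipid synthesis, stood at 0.54 ± 0.43, at 6.97, 6.09 and 8.02 in HKO livers, against 6.28, 6.24 and 6.94 in control livers.

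Of 16 measured further fatty acid and ChREBP targets, 10 had positive and 6 negative values, with a median of 0.13. Txnip, a thioredoxin-interacting protein and well-known ChREBP target, read 7.28, 6.96 and 7.43 in HKO livers, against 7.92, 7.81 and 7.62 in control livers. All HKO arrays lay below all controls (-0.56 ± 0.13, limma adjusted p = 0.122), as they did for Mlxipl. Gpd1, the glycerol-3-phosphate dehydrogenase, lay above in all HKO arrays at 0.29 ± 0.08 (limma adjusted p = 0.18). Elovl3, an elongase of very long-chain fatty acids, read 9.97, 10.87 and 9.85 in HKO livers, against 10.87, 11.19 and 10.89 in control livers. It stood at -0.75 ± 0.25 (limma adjusted p = 0.252). Without HKO 2, which was level with the lowest control, it passed at -1.07 (limma adjusted p = 0.0113, with 0.893% of all genes called in that fit). The 13 measured genes of SREBP processing and turnover stayed between -0.14 and 0.40, with Rnf145, a sterol-responsive ubiquitin ligase, at 0.40, the chaperone Hsp90b1 at -0.14 and the protease Mbtps2 at 0.10. Of 8 measured genes of LXR receptors and sterol efflux, 4 were positive and 4 negative. Rxra, the partner receptor of LXR, lay below all controls in all HKO livers at -0.27 ± 0.10 (limma adjusted p = 0.281). So did the LXR gene Nr1h3, named after its values were seen, at -0.14 (limma adjusted p = 0.561). The sterol transporter Abcg1 lay above all controls at 0.19 and the lysophospholipid acyltransferase Lpcat3 stood at 0.24. Of all genes, 8.58% lay above and 10.1% below all controls in all HKO arrays.

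The genes outside the pathway closest in pattern to the sterol arm were sought among 3658 genes of above-median level and spread, by the correlation over the 6 arrays between deviations from the genotype means. These values are a description, since HKO 3 carries much of the deviation in all of them and the deviations of a genotype sum to 0. The 10 highest had correlations between 0.986 and 0.996 and were Swsap1, Mfge8, Aldoc, Ugdh, Rtn4, Zfand5, Arsg, Slc23a2, Atpif1 and Pdzk1ip1. Aldoc, a fructose-bisphosphate aldolase, read 6.37, 6.39 and 7.33 in HKO livers, against 6.73, 7.06 and 7.19 in control livers, while Ugdh, the UDP-glucose dehydrogenase, read 9.42, 9.43 and 9.88 in HKO livers, against 8.96, 9.12 and 9.13 in control livers. None of the 10 passed between genotypes (limma adjusted p between 0.0915 and 0.804). On the same measure Ebp stood at 0.595 and Stard4 at 0.653, and the other sterol genes had correlations between 0.917 and 0.998. The fatty acid genes lay between 0.646 and 0.978, and the regulators between -0.73 for Srebf1 and 0.97 for Insig1. Each sterol gene is itself part of the mean it was set against and the other genes are not, so these ranges are not like for like.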

How the data were processed

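The authors deposited RMA log2 values for 38208 probe sets on each of 6 arrays. The submitters' processing notes name RMA and limma, but the sources used here give no versions. Because RMA equalizes the distributions of the arrays, it would hide a change in total transcript level. RNA (400 ng) was labelled per the labels' protocols. Gene symbols came from the platform annotation (34325 with 1 gene symbol, 62 with several, 3808 unnamed here, 13 controls left out), and 34131 matched the RefSeq gene table by gene ID.

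The comparison, HKO minus control, used limma 3.58.1 under R 4.3.3 (two-sided, Benjamini-Hochberg over 18029 genes, threshold 0.05), which was tested on simulated data. With 3 arrays a genotype, the smallest p that exact permutation allows is 0.1. The genes and lists were chosen with earlier results of these data known. All 37 genes, Tmbim1, the 3 genes of lowest p of each further list and the 10 genes closest in pattern were named. Alternatives changed the normalization, centring, brightness filter, probe set choice, variance model, array weights, replicate block and threshold, or left out 1 array. Second probe sets were added after the data were seen.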

Additional observations from a re-analysis of the deposited data

How the results depend on the processing

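The sign of a difference within the pathway often depended on 1 array. Over the 6 fits without 1 array, log2 fold changes lay for Insig1 between -0.018 and 0.24, Acly between -0.11 and 0.30, Acss2 between -0.23 and 0.36, Acaca between -0.020 and 0.50, Acacb between -0.17 and 0.68 and Fasn between -0.049 and 0.77. They lay for Scd2 between -0.10 and 0.43, Pklr between -0.037 and 0.40, Hmgcs1 between -0.38 and 0.24, Pmvk between -0.55 and 0.073, Mvd between -0.81 and 0.12 and Lss between -0.55 and 0.16. They also lay for Cyp51 between -0.59 and 0.056, Tm7sf2 between -0.37 and 0.033, Sc5d between -0.035 and 0.32 and Stard4 between -0.27 and 0.017. By the median of the probe sets of each gene, Hmgcs1 stood at 0.091, Lss at 0.36, Sc5d at -0.0075 and Ggps1 at -0.037, with the sign opposite to that of the brightest probe set. The count of pathway genes past the threshold was between 0 and 1 in the fits without 1 array and 0 under the other alternatives. The count of all genes was 182, between 78 and 161 without 1 array, and 344 at an adjusted p under 0.1. The replicate number as a block gave 125 genes and 0 of the pathway. Same-numbered arrays had correlations of deviations of -0.094, 0.069 and 0.11, against -0.15 to 0.078 for differently numbered arrays. With 3 arrays a genotype, these values cannot decide whether equal numbers mark a pair or a shared batch. HKO 3 was the highest HKO array in 17 of 17 sterol and 14 of 14 fatty acid genes. Control 3 was the highest control array in 13 of 17 and 13 of 14. The fatty acid median lay between 0.036 (without HKO 3) and 0.48 without 1 array, and the sterol median between -0.55 (without HKO 3) and -0.016 (without HKO 1). The difference of the arms was positive under all alternatives run. Fabp5 passed with the block (limma adjusted p = 0.017), and Tmbim1 did not (limma adjusted p = 0.0828). The size of a single-gene difference that 3 arrays a genotype can show is limited by the spread, with a median SE of 0.28 in the sterol arm against 0.093 over all genes.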
